A study of Mus musculus with 6 samples.

Results

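Glucocorticoids are steroid hormones of the adrenal cortex that enter cells and bind the glucocorticoid receptor, encoded by Nr3c1, which then moves to the nucleus and acts on its target genes. In brain, glial and vascular cells are known to carry part of this response: oligodendrocytes switch on the kinase gene Sgk1, and astrocytes and endothelium the anti-inflammatory regulator Tsc22d3, also called GILZ. The genes described here are 10 such targets, Sgk1, Cdkn1a, Arrdc2, Zbtb16, Fkbp5, Tsc22d3, Sult1a1, Hif3a, Pdk4 and Klf9, of 18204 genes in the count table, and all 10 were found there by symbol. All 10 are annotated as protein-coding genes in GENCODE on GRCm38. Sgk1 spans chr10:21882184-21999903 and Klf9 chr19:23141226-23168134 on the plus strand, as does Cdkn1a at chr17:29090976-29100727. On the minus strand lie Fkbp5 (chr17:28399094-28517527), Arrdc2 (chr8:70835129-70839720), Zbtb16 (chr9:48654297-48836222), Tsc22d3 (chrX:140539528-140600659), Sult1a1 (chr7:126672865-126676432), Hif3a (chr7:17031507-17062427) and Pdk4 (chr6:5483351-5496309).

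The counts came from Drop-seq of mouse hypothalamus, a method that captures single cells with barcoded beads in droplets and counts unique molecular identifiers (UMIs) at the 3′ ends of transcripts. There were 3 WT libraries and 3 KO libraries, all from C57BL/6J mice aged 8 weeks; KO mice lack IDOL, the E3 ubiquitin ligase of lipoprotein receptors encoded by Mylip. The labels give no treatment, no hormone level, no hour of collection and no number of animals per library, and cells were run on 2 days without a statement of which library belongs to which day. Day could therefore not be used as a term, and p-values measure the spread between libraries, which may be technical.

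The 10 genes were chosen on the difference that is described first below, because several of them were lower in KO oligodendrocytes, astrocytes or endothelium in these same libraries. Their KO and WT values are thus a description, given without p-values in every cell class, and no support for a difference is drawn from them. A gene has to be counted in glia to be seen lower there, so the choice also favoured genes that glia and endothelium express.

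Each library held between 1670993 and 4068886 UMIs, and between 1036 and 1946 cells were kept per library, 9333 in all. Cells were clustered and the clusters named by markers, so each class name stands for "oligodendrocyte-like" and so on. The classes with at least 20 cells in every library were neurons (2669 cells), astrocytes (1639), oligodendrocytes (1267), endothelial cells (802), oligodendrocyte precursors (589), tanycytes, the cells that line the floor of the third ventricle (425), and microglia (391). Levels are given in CPM, the UMIs of a gene over all UMIs of its class in a library, scaled to 1000000; 3′ UMIs do not scale with transcript length. Mag, a glycoprotein gene of myelin, stood at 6389 CPM in oligodendrocytes, the glutamate transporter gene Slc1a2 at 4923 in astrocytes and the VEGF receptor gene Flt1 at 4236 in endothelial cells, against medians of 18.3, 86.0 and 44.3 over the other classes. The knocked-out gene Mylip had 68, 27 and 43 UMIs over all cells of WT libraries 1 to 3, but 2, 0 and 0 in KO. Only 3 of 13991 barcodes occurred in more than one library.

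The receptor binds DNA as a dimer at a pair of hexamers, AGAACA and its reverse complement TGTTCT with any 3 bases between them. The 250 bases before annotated starts were searched for these letters on both strands, because the genes were grouped as targets of one receptor; the sequences are RefSeq promoters of build GRCm38.p6. A promoter was on hand for 9 of the 10 genes, with 17 starts in all, and at least one hexamer was found before 5 of the 17 starts, in Sgk1, Sult1a1 and Tsc22d3. Over all 32851 promoters of the same length, 16.1% held at least one. The full paired site was found before 3 of the 32851 starts, 0.0091%, and one of these was a start of Sgk1. Sgk1 alone had 6 of the 17 starts, 3 of them with a hexamer. Tsc22d3 had 3 starts, and the 1 with a hexamer is the start meant below. In the sequences printed here, 5′ to 3′ on the strand of the gene, capitals mark the hexamers. Further single hexamers, not printed, lie 13 to 8 and 242 to 237 bases before starts of Sgk1 and 34 to 29 bases before that of Sult1a1.
Sgk1, chr10:21993681-21993735, plus strand, 189 to 175 bases before a start inside the long gene model and in an intron of it: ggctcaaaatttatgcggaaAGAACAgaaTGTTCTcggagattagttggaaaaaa
Sgk1, chr10:21881969-21882014, plus strand, 195 to 190 bases before the first start: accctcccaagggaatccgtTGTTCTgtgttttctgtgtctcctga
Tsc22d3, chrX:140600682-140600727, minus strand, 185 to 180 bases before its start: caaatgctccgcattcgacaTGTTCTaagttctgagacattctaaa
Sult1a1, chr7:126676605-126676650, minus strand, 212 to 207 bases before its start: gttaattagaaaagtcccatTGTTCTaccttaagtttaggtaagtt
No hexamer was found in the windows of Cdkn1a, Arrdc2, Fkbp5, Hif3a, Pdk4 and Klf9, which says only that these letters are not in the 250 bases. Zbtb16 was not searched. A match is a description of the letters and not a binding site, and the receptor's binding was not measured.

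Summed over the 10 genes, the 3 KO libraries lay below the 3 WT libraries in oligodendrocytes and endothelial cells and overlapped with them in the other 5 classes. Oligodendrocytes, the myelin-forming cells, summed to 2994, 3558 and 3361 CPM in WT and to 2014, 979 and 1737 in KO. The groups did not overlap, and the means were 3305 ± 286 and 1576 ± 536 (SD, n = 3 each), 2.10-fold lower in KO. Sgk1 gave 59.1% of these UMIs, and without it the log2 difference was -0.74 in place of -1.07. In endothelial cells the sums were 3452, 3759 and 3694 in WT and 2778, 2191 and 2651 in KO, again without overlap and 1.43-fold lower in KO. In astrocytes the sums were 1514, 2412 and 2169 in WT and 1423, 1116 and 1750 in KO, with WT library 1 inside the KO range. Microglia (3147 ± 455 in WT and 2241 ± 600 in KO, SD, n = 3 each) and oligodendrocyte precursors (687 ± 193 and 450 ± 99.0) overlapped too. The WT means exceeded the KO means 1.42-fold in astrocytes, 1.40-fold in microglia and 1.53-fold in precursors, so the endothelial ratio was of the same size as in these overlapping classes. Neurons and tanycytes held nearly the same sums in both groups, 303 ± 55.1 against 275 ± 30.6 in neurons and 976 ± 103 against 894 ± 263 in tanycytes. KO library 2 had the lowest sum of the 6 libraries in oligodendrocytes, astrocytes and endothelial cells. Leaving it out gave log2 differences of -0.83, -0.36 and -0.44 in those classes, against -1.07, -0.51 and -0.52 with it.

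**Figure D1:**
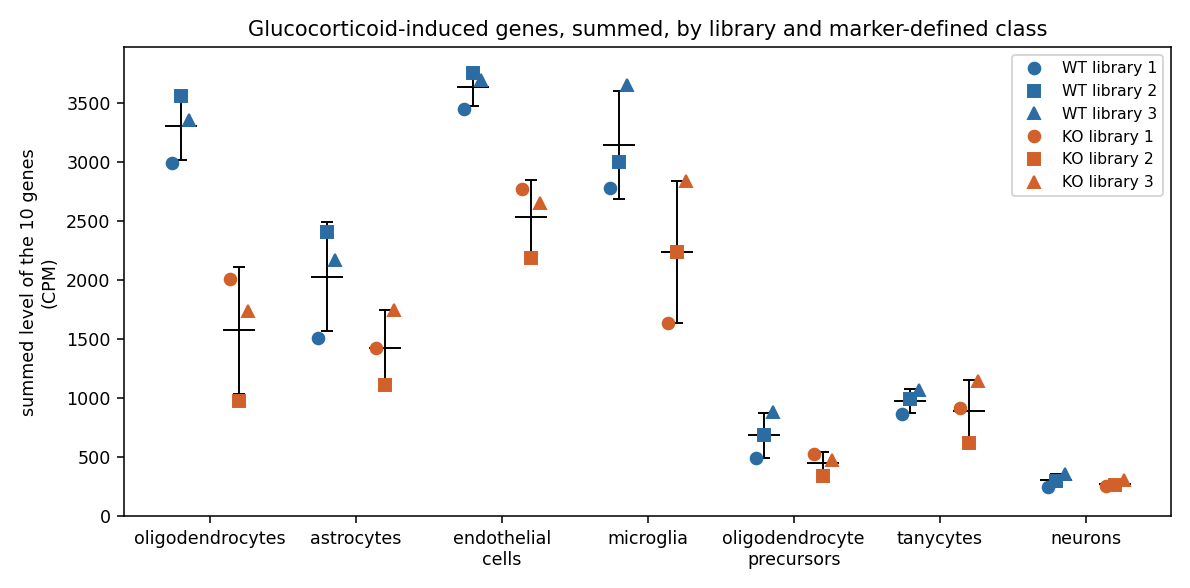
Summed level of the 10 genes (y axis, CPM) in each library (points; WT blue, KO orange) of the 7 classes on the x axis, with mean and SD in black. The WT and KO points are apart in oligodendrocytes and endothelial cells and interleave in neurons and tanycytes.

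In oligodendrocytes the mean was lower in KO for 9 of the 10 genes, and the 3 KO libraries lay below the 3 WT libraries for 4 of them, Sgk1, Arrdc2, Fkbp5 and Pdk4. Of the 6 members with enough UMIs for the fit, 2 did not overlap in this way. The same held for 6.23% of the 4093 genes fitted in this class. A negative log2 difference was found in 5 of the 6 and in 50.2% of all genes fitted. Since the genes were chosen on this contrast, nothing is read from these shares. The 9 genes with a lower mean include some too rare for a statement on direction, such as Sult1a1. Sgk1 encodes a kinase that acts on ion channels and transporters. It stood at 1938, 2382 and 1928 CPM in WT and 1222, 476 and 839 in KO, and the fitted log2 difference was -1.30 ± 0.24 (SE). Every WT library was above every KO library, and KO library 2 was lowest. Arrdc2, an arrestin-domain gene of membrane protein trafficking, stood at 192, 235 and 180 in WT and 100, 51.1 and 84.1 in KO, a log2 difference of -1.34 ± 0.27. The order of the KO libraries was the same as for Sgk1.

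Cdkn1a, which encodes the cell cycle inhibitor p21 and is also a target of p53, stood in oligodendrocytes at 309, 94.1 and 417 in WT and at 32.2, 27.5 and 126 in KO. KO library 3 exceeded WT library 2, and the log2 difference of -2.00 ± 0.42 was -3.20 without KO library 3 and -1.59 without WT library 3. Zbtb16, the transcriptional repressor PLZF, stood at 71.5, 127 and 200 in WT and at 44.2, 35.4 and 95.8 in KO. Its groups overlapped, and the log2 difference of -1.06 ± 0.37 was -1.71 without KO library 3 and -0.62 without WT library 3. Fkbp5 encodes a co-chaperone of the receptor that lowers its affinity for hormone, and it was counted too rarely for the fit, with 8, 11 and 13 UMIs in WT and 6, 4 and 6 in KO. Pdk4, a kinase that turns down pyruvate oxidation, had 6, 3 and 3 UMIs in WT and 0, 0 and 2 in KO. Tsc22d3 and Klf9, a Krüppel-like transcription factor, had 300 and 575 oligodendrocyte UMIs and log2 differences of 0.04 ± 0.29 and -0.15 ± 0.21. Sult1a1, a sulfotransferase of phenols, and Hif3a, a hypoxia-inducible factor subunit, had 18 and 8 UMIs over all 6 libraries of this class.

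**Figure D2:**
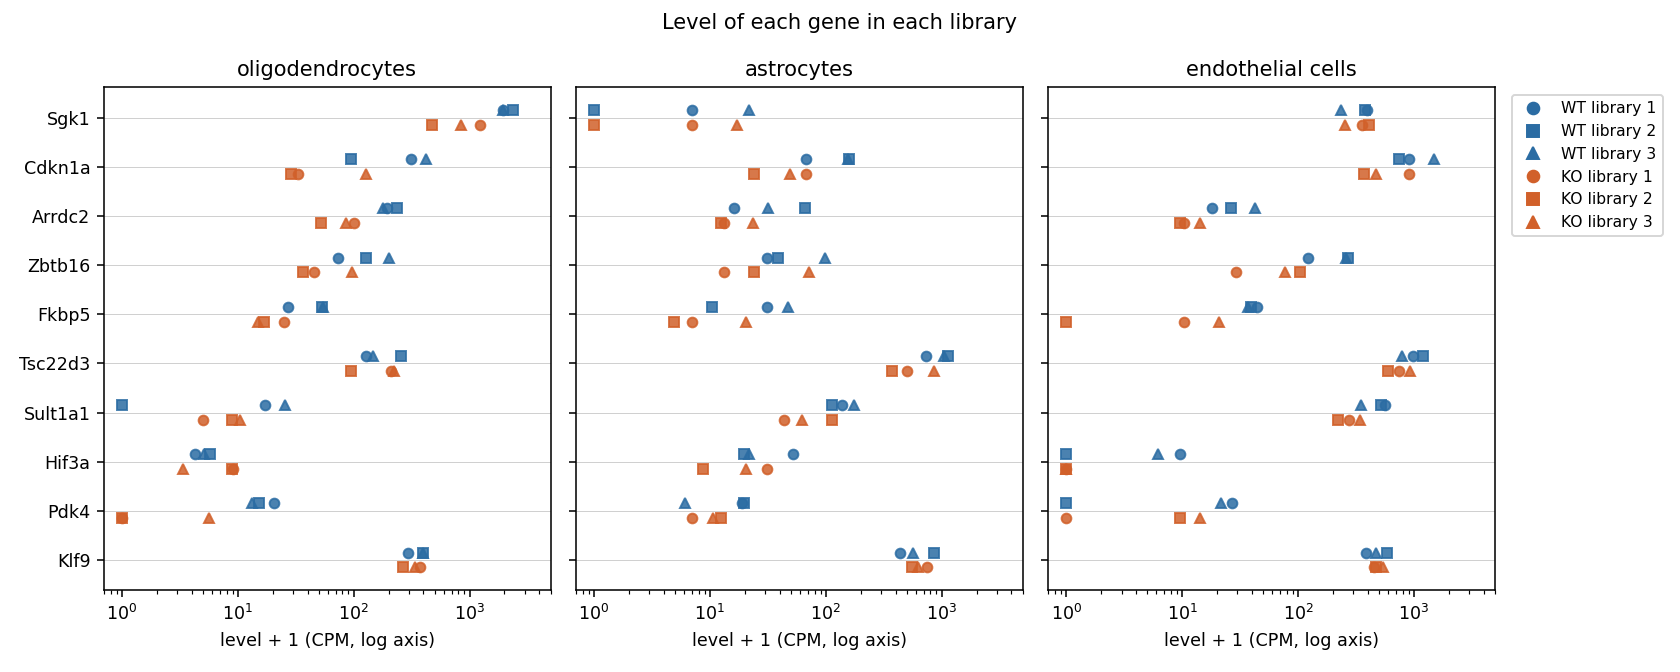
Level of each gene plus 1 (x axis, CPM, log axis) in each library for oligodendrocytes, astrocytes and endothelial cells; within a gene, WT points (blue) are drawn above KO points (orange). Sgk1, Arrdc2, Fkbp5 and Pdk4 separate in oligodendrocytes, Sult1a1 in astrocytes and Zbtb16, Fkbp5, Arrdc2 and Sult1a1 in endothelial cells, while Klf9 overlaps in all 3.

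In astrocytes the means were lower in KO for 9 of the 10 genes, but the libraries were apart for Sult1a1 alone. It is 1 of the 4 members fitted in this class, where 4.7% of the 4190 genes fitted had all KO libraries below all WT libraries. A negative log2 difference was found in 3 of the 4, beside 50.3% of all genes fitted. Sult1a1 stood at 138, 112 and 175 CPM in WT and at 42.4, 112 and 61.3 in KO, a log2 difference of -0.96 ± 0.31 (SE). WT library 2 and KO library 2 nearly touched. Tsc22d3, the most abundant member here, stood at 727, 1140 and 1054 in WT and at 502, 369 and 852 in KO, with a log2 difference of -0.73 ± 0.25 and with KO library 3 inside the WT range. Cdkn1a was at 66.1, 159 and 154 in WT and at 66.6, 23.1 and 48.4 in KO, with WT library 1 among the KO values (-1.39 ± 0.38). Klf9 was at 616 ± 214 in WT and 641 ± 92.8 in KO (SD, n = 3 each). Sgk1 was nearly absent from astrocytes, with 12 UMIs in 1639 cells, and Hif3a and Pdk4 had 36 and 16.

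In endothelial cells the mean was lower in KO for 8 of the 10 genes, and 4 had no overlap: Zbtb16, Sult1a1, Arrdc2 and Fkbp5. Of the 6 fitted members, 2 lay wholly below WT, beside 3.78% of the 2540 genes fitted in this class. A negative log2 difference was found in 4 of the 6, beside 49.6% of those genes. Zbtb16 stood at 121, 267 and 259 CPM in WT and at 28.3, 103 and 75.9 in KO, so that the highest KO library was just below the lowest WT library. Sult1a1 stood at 560, 521 and 352 in WT and at 273, 223 and 343 in KO, a log2 difference of -0.72 ± 0.27 (SE), and WT library 3 and KO library 3 nearly met. Cdkn1a reached its highest level of any class here, 913, 749 and 1485 in WT and 904, 368 and 472 in KO, and its groups overlapped (-0.89 ± 0.33). Tsc22d3 was at 989 ± 201 in WT and 754 ± 160 in KO (SD, n = 3 each; -0.37 ± 0.25 on the log2 scale). Sgk1, which was so much lower in KO oligodendrocytes, was at 337 ± 90.2 in WT endothelial cells and 341 ± 79.7 in KO, and Klf9 at 481 ± 98.7 and 488 ± 47.2. Fkbp5 had 5, 3 and 7 UMIs in WT and 1, 0 and 6 in KO, and Arrdc2 had 2, 2 and 8 against 1, 1 and 4.

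In microglia, the resident macrophages of brain, the mean was lower in KO for 7 genes and higher for 1, and 2 had no UMI. Fkbp5 had 9, 7 and 10 UMIs in WT microglia and 1, 1 and 4 in KO, or 196 ± 5.66 and 37.5 ± 19.5 CPM (SD, n = 3 each), without overlap but below the count needed for the fit. Cdkn1a went the other way and was at 219 ± 10.7 in WT and 322 ± 29.2 in KO microglia, with all KO libraries above all WT libraries, as in 6.32% of the 728 genes fitted there. None of the 3 fitted members lay wholly below WT in microglia, where 5.49% of genes did. Sgk1 was at 2108 ± 350 in WT microglia and 1521 ± 392 in KO and overlapped. In neurons none of the 6 fitted members was apart in that direction, beside 5.2% of 9596 genes, and their log2 differences ran from -0.50 to 0.02. The neuronal mean was lower in KO for 7 of the 10 genes and higher for 3. In oligodendrocyte precursors and tanycytes, none of the 2 fitted members was apart, beside 4.89% and 4.78% of the genes fitted. The mean was lower in KO for 7 genes and higher for 2 in precursors, and lower for 8 and higher for 2 in tanycytes. Rare members below the count for the fit were apart in both classes. Zbtb16 had 10, 6 and 9 UMIs in WT tanycytes and 3, 2 and 1 in KO, or 68.8 ± 60.1 and 13.5 ± 4.12 CPM (SD, n = 3 each). In precursors Zbtb16 had 4, 3 and 5 UMIs in WT and 3, 2 and 2 in KO, and Sult1a1 had 1, 2 and 1 against 0, 1 and 1. Of all genes fitted, 50% had a negative log2 difference in microglia, 52.2% in neurons, 49.6% in precursors and 49.8% in tanycytes. The counts of lower means in these classes take in such rare members.

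Over all cells of a library taken as one sample, 2 of the 9 fitted members had all KO libraries below all WT libraries, beside 3.21% of 13059 genes. The sum of the 10 genes was 1319 ± 411 in WT and 980 ± 401 in KO (SD, n = 3 each). The mean of Sult1a1 was higher in KO there (-0.72 ± 0.27 in endothelial cells but 0.35 ± 0.52 over all cells, log2 ± SE). It stood at 49.8, 71.1 and 78.0 CPM in WT and at 41.0, 40.9 and 170 in KO, so KO libraries 1 and 2 were below every WT library and KO library 3 alone made the KO mean higher. KO library 3 also held 104 of the 196 fibroblast-like cells, the class with the highest Sult1a1 level, at 335 UMIs or 932 CPM pooled over libraries. Whether the share of fibroblasts sets this value was not tested.

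Shares of single cells were compared at matched depth. Depth of oligodendrocytes differed between libraries, with medians of 1395, 1032 and 1187 UMIs per cell in WT and 940, 922 and 1147 in KO. KO libraries 1 and 2 were below every WT library, but KO library 3 was above WT library 2. Cells were therefore thinned to 500 UMIs each, which left out 25 WT and 21 KO oligodendrocytes. Sgk1 was then found in 63.5%, 70.2% and 61.5% of WT oligodendrocytes by library, against 45.5%, 21.8% and 33.8% in KO. Before thinning the shares were 83.7% ± 4.63 and 54.3% ± 14.5 (SD, n = 3 each). At the same depth Sgk1 was found in 1.68% ± 0.44 of WT and 0.82% ± 0.57 of KO neurons, and in 0.45% ± 0.52 of WT and 0.13% ± 0.22 of KO astrocytes. The source of these few UMIs was not tested. The largest contribution of 1 cell to the 2358 Sgk1 UMIs of oligodendrocytes was 14 UMIs, 0.594%. Tsc22d3 was found in 29.5%, 48.1% and 43.7% of WT astrocytes and in 14.3%, 15.7% and 38.3% of KO astrocytes, with KO library 3 close to WT. Cdkn1a was found in 40.2%, 29.5% and 42.0% of WT and 32.1%, 17.4% and 20.0% of KO endothelial cells. Sult1a1 shares overlapped in endothelial cells, at 17.9% ± 6.09 and 16.7% ± 0.46. Without thinning they were 37.2%, 31.2% and 33.1% in WT and 19.3%, 17.8% and 24.4% in KO, and did not overlap. Median depths in this class were 685, 645 and 638 UMIs in WT and 660, 635 and 628.5 in KO. Thinning left out 84 WT and 138 KO endothelial cells, and 130 WT and 230 KO astrocytes.

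**Figure D3:**
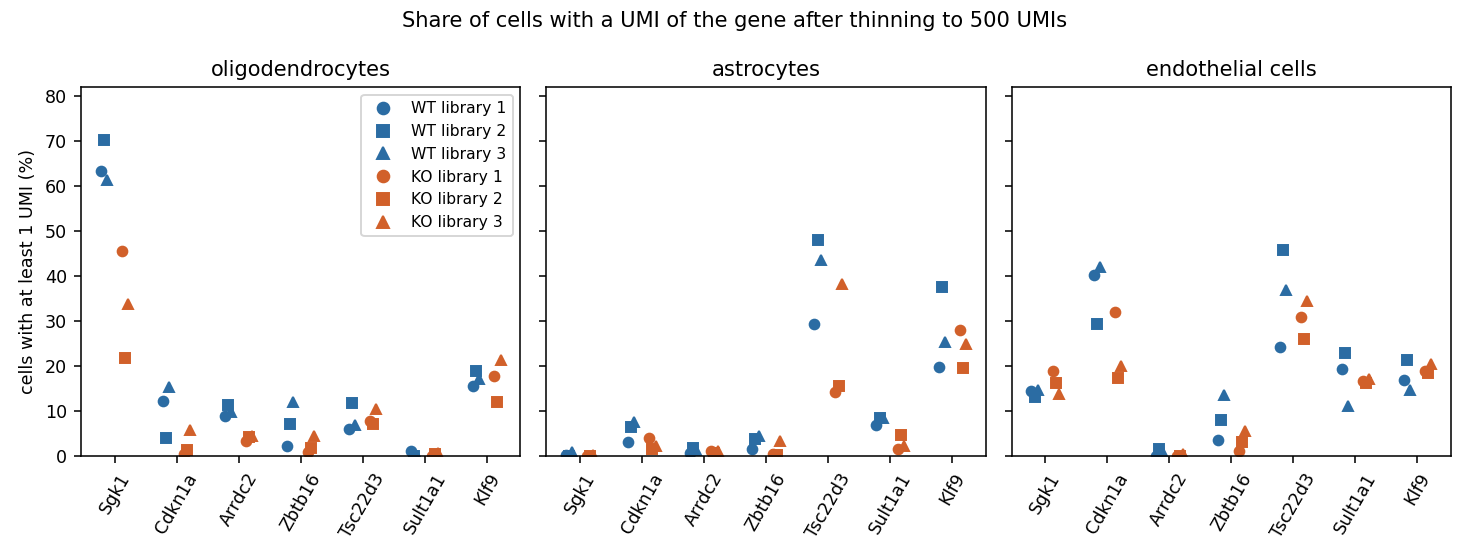
Share of cells with at least 1 UMI of a gene (y axis, %) after thinning each cell to 500 UMIs, for 7 genes in 3 classes; each point is a library (WT blue, KO orange). Sgk1 in oligodendrocytes is the widest gap, from 61.5% or more in WT to 45.5% or less in KO.

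Oligodendrocytes formed 2 main clusters, and the difference was present in each. The larger one held 68.8% ± 1.16 of the oligodendrocytes in WT and 76.4% ± 6.51 in KO (SD, n = 3 each), and the summed level within it was 3704 ± 222 in WT and 1736 ± 650 in KO. In the smaller one the sums were 2865 ± 362 and 1376 ± 297, and neither cluster's groups overlapped. Markers of other cell types were summed over their lists. In oligodendrocytes the 7 neuron markers gave 287 to 650 CPM in WT and 275 to 686 in KO, and the 9 astrocyte markers 446 to 534 and 302 to 487, with none at 0. The 9 microglial markers together gave 32.5 to 53.3 CPM in WT and 31.7 to 42.6 in KO, and the 9 endothelial markers 41.0 to 49.5 and 31.7 to 76.8, with 1 marker of each list at 0. In astrocytes the 8 oligodendrocyte markers varied widely, from 1533 to 3824 in WT and from 1370 to 6386 in KO, highest in KO library 3, and none was at 0. In endothelial cells the 8 mural markers gave 4501 to 6299 in WT and 4439 to 4903 in KO, and the 7 fibroblast markers 286 to 1844 and 570 to 1099, with none at 0. The 7 neuron markers there stood at 1144, 1082 and 1468 in WT and at 912, 757 and 1072 in KO, so every KO library was below every WT library. The 8 oligodendrocyte markers gave 2432, 2399 and 2225 in WT endothelial cells and 1769, 1820 and 2279 in KO, also with none at 0. The part of these other cells in the oligodendrocyte, astrocyte and endothelial values was not tested.

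The members differed in the cell class in which they stood highest. This comparison used each class against neurons of the same library and did not use genotype. The choice of the members still favoured genes counted in glia and endothelium. Their counts beside those of all genes are therefore a description, and no enrichment is read from them. Of the 8 members with enough UMIs, 7 were higher than in neurons in oligodendrocytes and 7 in endothelial cells, where 28.6% and 30.9% of the 7176 genes fitted were higher. Astrocytes had 6 members higher (31% of all genes), microglia 5 (21.7%), tanycytes 4 (28.7%) and oligodendrocyte precursors 2 (22.5%), each by edgeR with Benjamini-Hochberg adjustment. No member was lower than in neurons in oligodendrocytes, astrocytes or endothelial cells, where 39.9%, 35.8% and 39.3% of genes were. In microglia 2 were lower (36.5% of genes), in tanycytes 1 (33.9%) and in oligodendrocyte precursors 1 (31.7%). Clustering without the members among the variable genes gave the same numbers of higher members in oligodendrocytes, endothelial cells, astrocytes and precursors and 4 in place of 5 in microglia.

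Sgk1 was a gene of microglia and oligodendrocytes, 84.9-fold and 73.7-fold above neurons (log2 6.41 ± 0.21 and 6.20 ± 0.19, SE), and its levels there, 1821 ± 490 and 1464 ± 732 (SD over 6 libraries), overlapped. Endothelial cells followed at 338 ± 73.9, below every oligodendrocyte library, then precursors at 158 ± 54.7, which overlapped with them, and neurons at 24.2 ± 7.49. Arrdc2 had its highest level in oligodendrocytes, 140 ± 71.7, above astrocytes in 6 of 6 libraries, and it was 50.2-fold above neurons. Cdkn1a was highest in endothelial cells, 815 ± 399, above all microglial libraries at 271 ± 59.8, and it was lower in tanycytes than in neurons (log2 -1.42 ± 0.47). Zbtb16 led in endothelial cells and oligodendrocytes, at 143 ± 101 and 95.9 ± 61.4, which overlapped. It had 0 UMIs in 391 microglia, which allows up to 10.8 CPM.

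Tsc22d3 was highest in endothelial cells and astrocytes, at 873 ± 219 and 779 ± 316, which overlapped, and was 16.6-fold and 16.9-fold above neurons. It was lower in precursors than in neurons (log2 -1.70 ± 0.44). Sult1a1 was 96.1-fold above neurons in endothelial cells, 41.2-fold in microglia and 32.2-fold in astrocytes, with 23 UMIs in all 2669 neurons. Its endothelial level of 379 ± 135 was above every microglial library at 146 ± 48.7. Klf9 was counted throughout glia and endothelium: astrocytes at 630 ± 157, endothelial cells at 486 ± 78.6, tanycytes at 399 ± 91.1, oligodendrocytes at 343 ± 54.2 and precursors at 221 ± 79.6 overlapped from each to the next. Microglia had the least Klf9, 30.8 ± 35.3, and were below neurons (log2 -1.87 ± 0.45). Fkbp5 was above neurons only in microglia among the 6 classes tested (log2 1.77 ± 0.38), at 116 ± 86.7 against 34.7 ± 6.16. That microglial mean joins unlike groups. On the scale of the KO and WT comparison, microglia stood at 196 ± 5.66 in WT and 37.5 ± 19.5 in KO. Neurons stood at 34.6 ± 8.72 and 34.6 ± 3.63, so KO microglia were near the neuronal level. Hif3a had its highest mean in astrocytes, 24.5 ± 14.5, above oligodendrocytes in 5 of the 6 libraries. Pdk4 stood at 11.6 ± 5.96 in astrocytes and at a mean of 11.3, from 0 to 25.2, in endothelial cells, which overlapped, with astrocytes higher in 3 of the 6 libraries. Both genes were too rare for the fit.

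**Figure D4:**
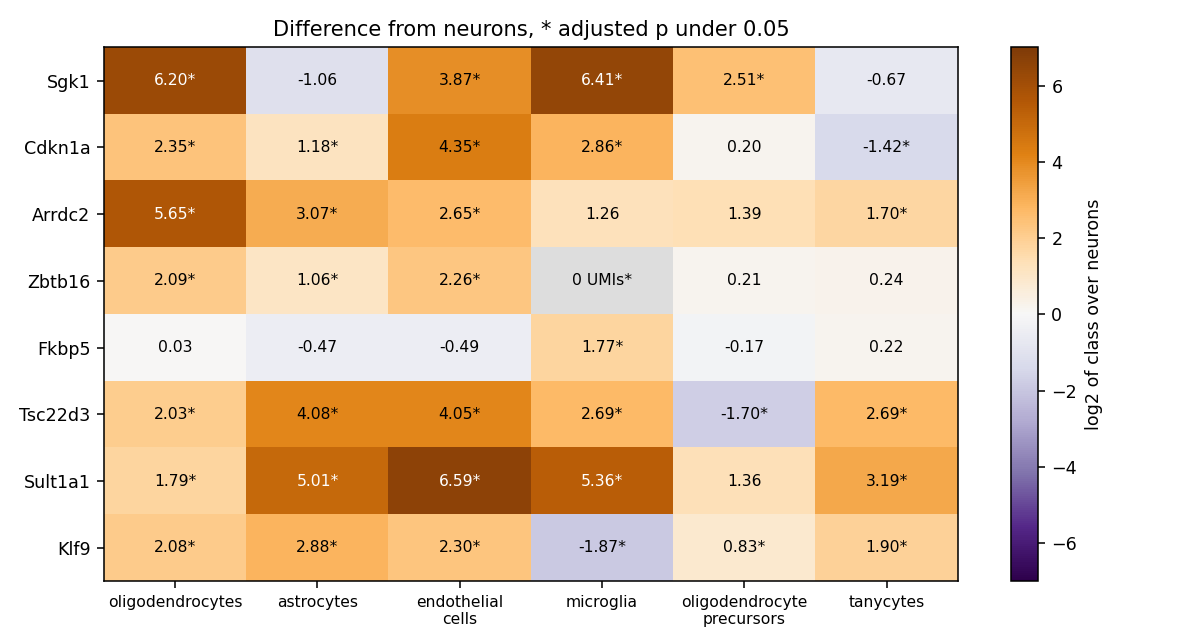
Log2 of the level in a class (columns) over neurons for the 8 fitted members (rows), orange higher and purple lower, with an asterisk where the adjusted p of the edgeR fit was under 0.05. Sgk1 and Arrdc2 peak in oligodendrocytes or microglia, Sult1a1 and Cdkn1a in endothelial cells, and the grey tile marks Zbtb16, with 0 UMIs in microglia.

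In classes too small for a fit, levels are pooled over libraries. Newly formed oligodendrocytes (97 cells) had Sgk1 at 690 CPM, between precursors and mature cells, and no Cdkn1a UMI. Fibroblast-like cells had the highest pooled Fkbp5 of all classes, 309, and Klf9 at 746, while mural cells, the pericytes and smooth muscle of vessels, had Klf9 at 572 and Cdkn1a at 386.

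The receptor itself was counted in every class. Nr3c1 was higher than in neurons in all 6 classes, by 1.18 ± 0.12 on the log2 scale in endothelial cells, 0.96 ± 0.12 in oligodendrocytes and 0.62 ± 0.13 in astrocytes (edgeR adjusted p = 8.45e-15, 2.88e-12 and 7.41e-06). Hsd11b1, the enzyme that regenerates active glucocorticoid inside cells, was higher in astrocytes by 6.24 ± 0.30 (edgeR adjusted p = 1.66e-35). It was also higher in endothelial cells by 2.18 ± 0.65 and in tanycytes by 1.88 ± 0.64 (edgeR adjusted p = 0.00213 and 0.00753). These rest on few UMIs, 11 in each of the 2 classes and 15 in neurons. Between KO and WT, Nr3c1 differed by -0.12 ± 0.22 in oligodendrocytes, 0.18 ± 0.24 in astrocytes and 0.11 ± 0.24 in endothelial cells (log2 ± SE), and did not pass the test in any. Fkbp4, a co-chaperone that counters Fkbp5, stood at -0.20 ± 0.25, 0.37 ± 0.33 and 0.20 ± 0.40.

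Other genes of the pathway were taken from 7 lists. No list gene was picked for its change, but the lists were drawn up with earlier results of these data known. By edgeR, 0 of 41 list genes passed in oligodendrocytes, 0 of 56 in astrocytes, 0 of 47 in endothelial cells and 0 of 68 in neurons, with 6, 4, 3 and 8 at an unadjusted p under 0.05. None of 25 passed in microglia, 25 in precursors, 47 in tanycytes or 90 over all cells, with 2, 1, 6 and 5 at that level, and DESeq2 called none in any of these. Over all genes the edgeR fit called 0.147% in oligodendrocytes, 0.0477% in astrocytes, 0% in endothelial cells, 0.0625% in neurons, 0.275% in microglia, and 0% in precursors, tanycytes and all cells together.

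Of the list of other glucocorticoid-induced genes, 12 were fitted in oligodendrocytes: 9 had a negative and 3 a positive log2 difference, with a median of -0.20 beside -0.00 over all 4093 genes. Nfkbia, the inhibitor of NF-kB, stood at 358, 409 and 359 CPM in WT oligodendrocytes and at 289, 70.7 and 220 in KO, without overlap and again lowest in KO library 2 (log2 -0.94 ± 0.29, edgeR adjusted p = 0.396). Plin4, a lipid droplet coat protein, was also without overlap at 101, 80.0 and 167 against 36.2, 58.9 and 67.8 (-1.05 ± 0.33, edgeR adjusted p = 0.413). Ddit4, an inhibitor of mTORC1, stood at -0.75 ± 0.25 and Errfi1, a feedback inhibitor of the EGF receptor, at -0.83 ± 0.31. In astrocytes 13 of 15 fitted genes of that list were negative, with a median of -0.32 beside -0.00 over all genes, and Nfkbia stood at -0.52 ± 0.27. The direction was not particular to that list in astrocytes, where 9 of 10 fitted immediate early and heat shock genes were negative too (median -0.34). In endothelial cells 9 of 14 were negative (median -0.16, all genes 0.00), with the actin-associated Fam107a at 591 ± 49.8 in WT and 357 ± 110 in KO (SD, n = 3 each; log2 -0.68 ± 0.27, edgeR adjusted p = 0.998) and Foxo1, a transcription factor of fasting, at 0.82 ± 0.40. In neurons 13 of 16 were negative, with a median of -0.20 beside -0.01 over all genes. Tanycytes had 9 of 12 negative (median -0.32), microglia 5 of 6 (-0.18) and precursors 5 of 6 (-0.22), so the direction was not particular to the 3 classes. Over all cells 15 of 28 were negative, with a median of -0.04.

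**Figure D5:**
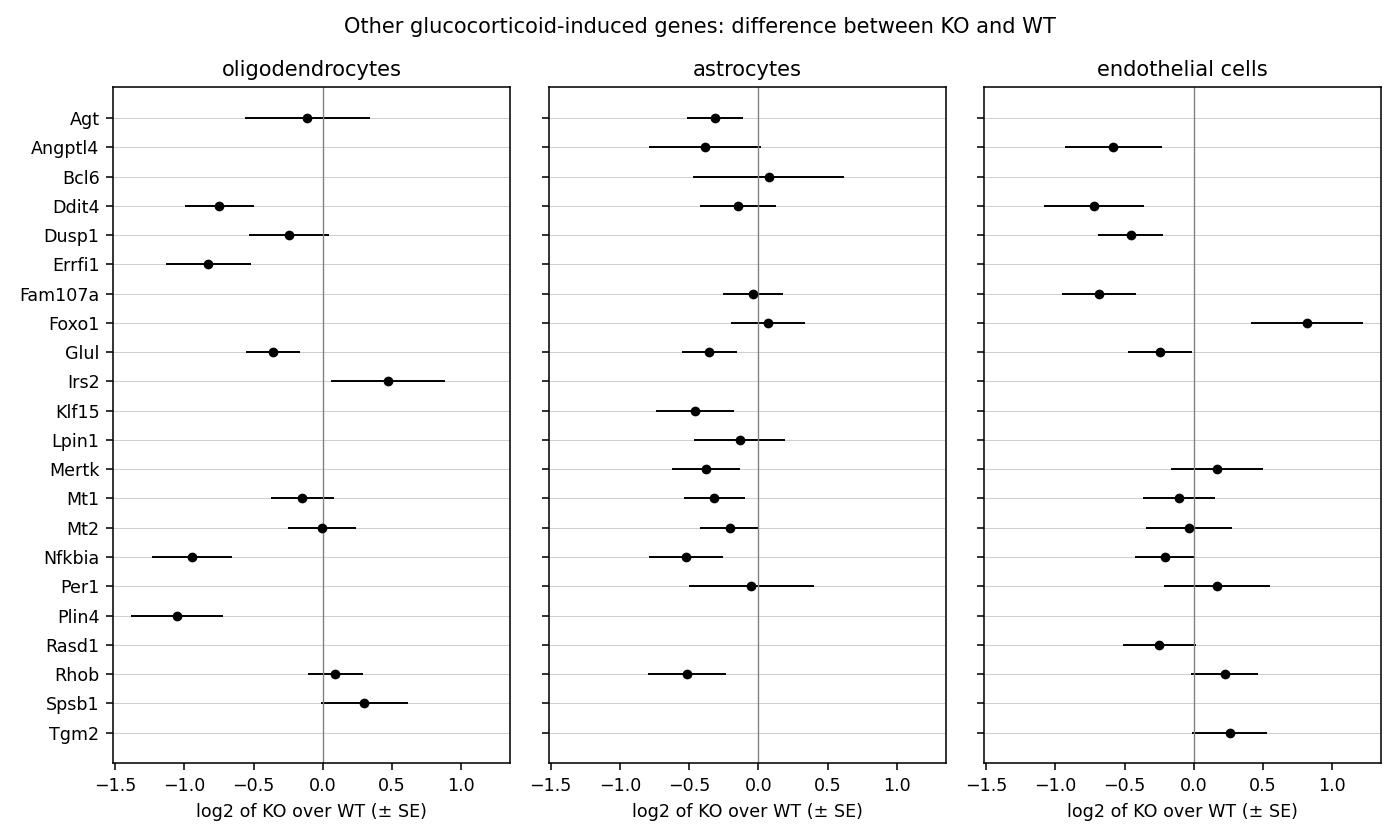
Log2 of KO over WT with its SE (x axis) for the other glucocorticoid-induced genes fitted in each of 3 classes (rows; a gene without a point was not fitted there). Plin4, Nfkbia, Errfi1 and Ddit4 lie farthest left in oligodendrocytes, and none passed the edgeR test.

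The remaining lists give the setting. Immediate early and heat shock genes, which respond to handling and dissociation, summed to 2656, 4114 and 2426 CPM in WT oligodendrocytes and to 4020, 1600 and 2120 in KO, with KO library 2 lowest here too. In astrocytes they summed to 1028 to 1532 in WT and 666 to 1430 in KO, and in endothelial cells to 13131 to 20418 and 16169 to 17264. Of those fitted, 9 of 10 had a negative log2 difference in astrocytes, 8 of 12 in oligodendrocytes and 5 of 15 in endothelial cells. The medians were -0.34, -0.06 and 0.32. Their part in the members' values was not tested. Of the p53 targets, apart from Cdkn1a, 3 were fitted in oligodendrocytes with a median of -0.14. Of the clock genes 3, 11 and 6 were fitted in oligodendrocytes, astrocytes and endothelial cells, with medians of -0.11, 0.13 and 0.25. Of the fasting and FoxO targets, 8 were fitted in astrocytes, 6 of them with a negative log2 difference.

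Hormones of the stress axis were read in neurons. Pomc, the precursor of the melanocortins, stood at 490, 1260 and 1000 CPM in WT neurons and at 645, 202 and 413 in KO, with KO library 1 inside the WT range (log2 -1.11 ± 0.29, edgeR adjusted p = 0.679). Crhbp, which binds corticotropin-releasing hormone, stood at 46.6, 11.5 and 17.7 CPM in WT and at 9.24, 15.5 and 3.27 in KO (log2 difference -1.63 ± 0.45, edgeR adjusted p = 0.803). The groups overlapped, and WT library 1 was far above the other 5. Crh itself was rare, at most 18.6 CPM. Avp was counted in oligodendrocytes, which do not make it, at 117, 1426 and 28.6 in WT and 76.4, 15.7 and 77.1 in KO, so WT library 2 alone carries the difference.

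Finally, genes were ranked by how closely they follow the members over 18 values, the 6 libraries in oligodendrocytes, astrocytes and endothelial cells. Cdkn1a, Tsc22d3 and Klf9, the 3 members fitted in all 3 classes, gave the reference profile, which was lowest in KO library 2 in each class. These values share libraries and depth, and the members were chosen on their KO and WT difference, so the correlations are a description. A gene picked for following this profile tends to be lower in KO as well, and no support is drawn from that. Of 1709 genes the highest was Tob1, an antiproliferative gene (Pearson r = 0.75), followed by Ndufa4 (0.74), a respiratory chain subunit gene, and Mxd4 (0.72), then Nfkbia (0.71) and Psmb1 (0.71). Rnf168 (0.69), Mat2a (0.68), Zcrb1 (0.66), Pls3 (0.66) and Tsc22d1 (0.66), a relative of Tsc22d3, completed the 10. Each of the 3 members correlated with the mean of the others at only 0.33, 0.40 and 0.32. These values cannot be set against those of the 10 genes, which are the highest of 1709 and refer to the mean of all 3 members. Tob1 stood at 133, 141 and 167 CPM in WT oligodendrocytes and at 84.4, 62.9 and 112 in KO. In astrocytes it stood at 147, 150 and 128 against 66.6, 73.1 and 113. All KO libraries lay below all WT libraries in both, as for 6.23% of all genes fitted in oligodendrocytes and 4.7% in astrocytes. In endothelial cells Tob1 was level (log2 0.05 ± 0.25).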

How the data were processed

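The authors deposited one table of UMI counts per gene and barcode; per the submitters' processing notes reads were handled with bcl2fastq and STAR 2.5.0c on mm10 (GRCm38). Barcodes with at least 300 genes and at most 20% mitochondrial UMIs were kept. Scrublet in scanpy 1.11.5 called 116 doublets (1.23%), which were removed. Leiden clusters (leidenalg 0.10.2, resolution 1) were named from at least 3 markers; 676 cells stayed unnamed, among them 459 Vip-led neurons. Raw counts were summed per library and class and fitted with edgeR 4.0.16 (quasi-likelihood, filterByExpr, TMM, Benjamini-Hochberg at 0.05); class against neurons used library as a block. CPM in KO and WT comparisons are TMM-scaled within a class. Those that rank classes, the sums within clusters and the sums of cell type markers are not. SE is the log2 difference over the root of F. DESeq2 1.42.0 was an alternative. The tests were checked on simulated data. Promoters are RefSeq's. The 10 genes and all lists were chosen with earlier results of these data known. Named were all members, list genes that passed or had the lowest p, and the 10 genes most like the members. Counting error limits genes with few UMIs.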

Additional observations from a re-analysis of the deposited data

How the results depend on the processing

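The summed level of the 10 genes stayed lower in KO under all 17 alternatives in oligodendrocytes (log2 from -1.28 to -0.74), all 17 in endothelial cells (-0.58 to -0.40) and all 16 in astrocytes (-0.68 to -0.30); these include sums within single clusters and without the member of the most UMIs, both chosen after seeing the data. In neurons it ran from -0.26 to 0.00 and in tanycytes from -0.39 to 0.09. The genes were chosen on this contrast in these same libraries, which every alternative reuses. The sign of the sums is thus a description, and no support is drawn from it. Library numbers did not pair the samples (correlations of same-numbered libraries in oligodendrocytes were -0.06, -0.09 and 0.20). Positive in all 3 classes were WT 1 with KO 2 (0.125 to 0.168), WT 2 with KO 1 (0.0859 to 0.216) and WT 3 with KO 3 (0.159 to 0.226). All other pairs were negative, apart from WT 2 with KO 2 in endothelial cells (0.0422). Values were centred within WT and within KO, so positive pairs come with negative ones by construction, and the negative pairs are no further result. The reason for the positive pairs, such as a shared day, was not tested. With the replicate block, which pairs by number, the sum stood at -1.13 in oligodendrocytes, -0.50 in astrocytes and -0.52 in endothelial cells. No list gene passed with it. Without the gene filter 1 list gene passed in astrocytes (Pomc), 2 in neurons (Pomc, Crhbp) and 2 in oligodendrocytes (Avp, Nfkbia, adjusted p = 0.0404 for the latter in edgeR). With at least 500 genes per cell 1 passed in endothelial cells (Hspa1a, higher in KO). Leaving out single libraries gave 0 to 1 in neurons (Pomc without WT library 1 or KO library 1, Btg2 without KO library 3) and 0 to 1 in oligodendrocytes (Avp, without WT library 1 or 3). Against neurons, 31 of 35 called member and class pairs kept their call in all 14 alternatives, 4 lost it at least once, none reversed, and 6 of 13 others passed at least once. DESeq2 gave 4 members higher in oligodendrocyte precursors in place of 2. The number lower in astrocytes was 2 with library totals, 1 without the gene filter and 0 to 2 without single libraries, and that in tanycytes was 0 with KO libraries only. The cause of these changes was not tested. Microglia with at least 500 genes per cell, and tanycytes with doublets kept or members left out of the variable genes, had too few cells for a value. At under about 20 UMIs a class, which holds for Hif3a and Pdk4 in most classes, depth allows no statement on direction.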
